A study of Mus musculus with 4 samples.

Results

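The comparison described here set the libraries in which Trp53 had been deleted against those in which it was intact, 2 libraries a side, in cultured mouse neural stem cells. All 4 libraries of the series entered it, and 9314 of the 55487 genes in the deposited table were tested, those with at least 10 TPM (transcript abundance, scaled for transcript length and to a fixed total) in at least 1 library. A gene was called separated where both Trp53-deleted libraries lay on the same side of both intact ones, and its gap was the distance between the nearest pair of opposing libraries on the log2(TPM + 1) scale, with a negative sign where the deleted side was lower.

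Each genotype was 1 library. The control came from Tut1 f/f cells given empty lipid nanoparticles, and the library labelled Tut1 KO from Tut1 f/f cells given particles with Cre recombinase mRNA. The Trp53 KO library came from p53 f/f cells and the double KO library from Tut1 f/f;p53 f/f cells, both given Cre particles, and Cre exposure lasted 3 days. The cells were neural stem cells grown from embryonic neocortex. The members of a side therefore differ in their Tut1 label and are not repeats of 1 culture, and p-values measure the spread between them, whatever its source. Both deleted libraries carry the floxed Trp53 allele and both intact ones lack it, so that the line of origin and the deletion cannot be told apart, and only the control had no Cre.

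The p53 protein encoded by Trp53 is a transcription factor that binds DNA as a tetramer at paired copies of a short palindromic motif. It is held low by the ubiquitin ligase Mdm2, which it induces in turn, and under DNA damage or other stress it raises genes for cell cycle arrest, cell death, DNA repair and metabolism. In neural stem and progenitor cells it is known for limiting self-renewal and for driving death after genome damage.

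Trp53 itself stood at 119.9 TPM in the control culture, 100.4 TPM in that labelled Tut1 KO, 39.7 TPM in that labelled Trp53 KO and 41.9 TPM in that labelled double KO. Both deleted libraries lay below both intact ones, by a gap of -1.24, although the transcript was still counted in each. The mean difference of -1.41 ± 0.15 (SE, n = 2 a side) had an adjusted p of 0.0739 by limma. Tut1 did not follow its labels, with values of 12.2, 29.8, 12.5 and 13.7 TPM from control through the Tut1 KO and Trp53 KO labels to the double KO. It was highest in the library meant to lack it. The study's design removes part of the gene, however, and a level over the whole gene does not measure that, so that the label can be neither checked nor faulted here and no direction is drawn from it.

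The libraries held similar numbers of genes at 10 TPM or more, from 8392 to 8747, and the 10 most abundant genes took 11 to 11.6% of the total. All 10 neural stem cell markers checked reached 10 TPM in at least 1 library. Prom1 did so in the control alone, at 10.6, 7.56, 5.69 and 8.73 TPM from control to double KO. None of 5 microglial, 4 endothelial and 5 meningeal fibroblast markers reached 1 TPM in any library. Summed levels of neuronal markers ran from 22.6 to 30 TPM, with 2 of 6 at 10 TPM or more in at least 1 library. Those of 4 astrocyte markers ran from 8.8 to 14.2 TPM. Oligodendrocyte lineage markers summed to 572 to 669 TPM and overlapped between the sides. In such bulk samples, fewer cells of a type and less RNA per cell cannot be told apart. The Xist transcript was high in the library labelled Tut1 KO and the Trp53 KO and Y-linked transcripts in the control and double KO, 1 of each kind a side.

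Of the 9314 genes, 1326 (14.2%) were separated with the deleted libraries higher and 1250 (13.4%) with them lower. With only 2 libraries a side, separation is frequent without any difference between the sides, so these shares alone show no shift with Trp53. Most gaps were narrow, with medians of 0.07 and -0.09, below the median distance between the intact libraries (0.24) or between the deleted ones (0.16). A gap of at least 1 was reached by 28 genes on the higher side (0.301%) and 33 on the lower side (0.354%). Of these, 16 higher and 21 lower genes stood below 10 TPM in both libraries of their lower side and so entered the comparison only through the side where they are high. With 10 TPM asked of all 4 libraries, 8 and 11 remained. Limma at an adjusted p of 0.05 called 6 genes higher (0.0644%) and 1 lower (0.0107%). At an unadjusted p of 0.05 it marked 137 genes as higher (1.47%) and 193 as lower (2.07%). Together these stayed below the share that such a threshold marks without any difference. Trp53 and its best known targets were thus not among the adjusted calls, and the values per library are given for each.

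The 3 lists of known p53 targets held 54 tested genes of 72 matched symbols, and 38 of them (70.4%) were separated lower against 13.4% of all genes, and 3 (5.56%) higher against 14.2%. Their median difference was -0.53, while that of all genes tested was 0.03. Taken apart, the list of cell death genes had 13 of 16 members separated lower, that of cell cycle arrest 11 of 14, and that of repair and metabolism 14 of 24. At an unadjusted p of 0.05, limma marked 30 of the 54 as lower and 0 as higher. The median kept its sign without any single library, between -0.45 and -0.65. It was -0.59 in the Trp53 KO set against the control, and -0.52 in the double KO set against the library labelled Tut1 KO, a pair in which both cultures had received Cre.

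Genes that stop the cell cycle were led by Cdkn1a, the Cdk inhibitor p21. It measured 477.2 and 604.7 TPM in the control and the library labelled Tut1 KO, and 196.2 and 178.6 TPM in the Trp53 KO and double KO. The sides did not overlap, and the mean difference was -1.52 ± 0.17 with a limma adjusted p of 0.0739. Ccng1, or cyclin G1, stood at 207.8, 180.9, 69.4 and 85.5 TPM in the same order. Its gap of -1.07 was the only other one past 1 in that list, and its difference was -1.32 ± 0.17. Gdf15, a secreted stress factor, Sesn2, a regulator of mTORC1, and Ptp4a3, a phosphatase, followed with gaps of -0.85, -0.82 and -0.73. Btg1 was separated the other way by 0.04, and Gadd45a and Sesn1 overlapped between the sides.

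Among cell death genes the BH3-only gene Bbc3, which encodes Puma, was at 24.3, 45.8, 13 and 11.8 TPM from control to double KO. The intact libraries also lay far apart from each other, and the gap was -0.86. Bax, the effector of mitochondrial permeabilization, showed 309 and 430 TPM in the intact libraries and 211 and 225 TPM in the deleted ones. Its sides did not overlap, with a gap of -0.45. A further 4 members passed a gap of 1. They were Dcxr, which encodes a carbonyl reductase rather than a death factor (-1.38), Trp53inp1, an autophagy regulator (-1.26), the TRAIL receptor Tnfrsf10b (-1.05) and the BH3-only gene Pmaip1 (-1.03). Apaf1, Siva1 and Bcl2l1 overlapped between the sides.

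The widest gap of any p53 target lay in the repair and metabolism list. Slc19a2, the high-affinity thiamine transporter, was at 22.0 and 22.8 TPM in the intact libraries, and at 2.24 (Trp53 KO) and 5.56 TPM (double KO) in the deleted ones, a gap of -1.81. Eda2r, a receptor for ectodysplasin A2, was at 39.1, 33.5, 12.6 and 12.7 TPM in the same order, and Ak1, an adenylate kinase, at 104.9, 128.9, 29.2 and 44.1 TPM. Their gaps were -1.33 and -1.23. Phlda3, an inhibitor of Akt signalling, came next with a gap of -0.95. In the same list Polk, Polh, Fdxr, Tigar, Ddit4, Prkab1, Lpin1 and Tk1 overlapped between the sides, so the lower levels were not shared by all known targets.

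**Figure D1:**
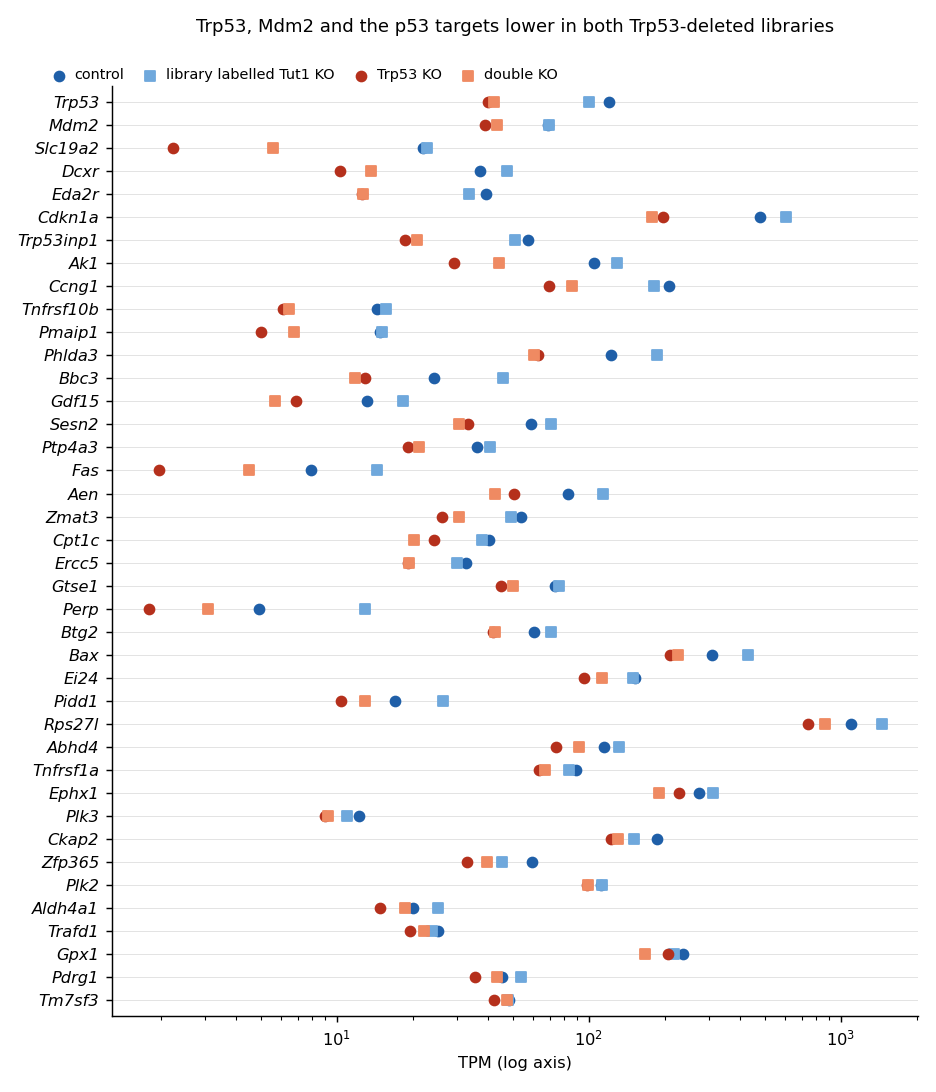
TPM of each library (log axis) for Trp53, Mdm2 and the 38 genes of the p53 target lists that were separated lower, ordered by gap below the top pair. The Trp53 KO and double KO points lie left of both intact points in every row, widely for Slc19a2 (gap -1.81) and barely for Tm7sf3 (gap -0.01).

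Among 18 tested regulators of p53, 4 (22.2% against 13.4% of all genes) were separated lower and 3 (16.7%, near the 14.2% of all genes) higher. The lower ones were Trp53, Mdm2, Mdm4 and Rchy1. Mdm2 measured 69.1 and 69.6 TPM in the intact libraries and 38.8 and 43.4 TPM in the deleted ones, a gap of -0.66. Rchy1, another ubiquitin ligase of p53, was at 92.6, 102.7, 22.7 and 75.5 TPM from control to double KO, so that the Trp53 KO library carried most of its difference. Usp7, which removes ubiquitin from p53 and Mdm2, was separated higher with a gap of 0.31, and so was Cdkn2a, which encodes Arf and p16, with 0.19, while Trp53bp1 had a gap of 0.02.

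Promoter sequence was examined because p53 acts through a known motif. RefSeq windows on GRCm38.p6, from 250 bases before to 50 after a start, matched 6948 of the genes tested. At least 1 half-site of the p53 consensus response element, a decamer, lay in the window of 568 of them (8.18%), and of 14 of 47 genes of the p53 target lists (29.8%). Of genes separated lower, 9.27% held one, and of those separated higher 6.77%. Among genes with a gap of -1 or lower, 7 of 25 (28.0%) did, and 2 of 14 (14.3%) of those with a gap of 1 or higher. Outside the p53 target lists the share was 8.64% (83 of 961) among genes separated lower, near the 8.18% of all genes. It was 26.3% (5 of 19) among those with a gap of -1 or lower, Trp53 and Riken clones included. A pair of half-sites within 13 bases of each other was rarer, with 5 windows of 6948 (0.072%), of which Cdkn1a was the only one among genes with a gap of -1 or lower. The decamer was searched as a pattern that equals its own reverse complement, so both strands were covered, and a match is a description of letters and not of binding.

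The stretches below show those matches with their gaps for 6 of the p53 targets that were separated lower, followed by Mef2c and Golim4, which were in no p53 target list. Capitals mark the half-site, or for Cdkn1a the pair of half-sites with the bases between them, and each stretch reads 5′ to 3′ on the gene's strand.
Cdkn1a (gap -1.28, chr17:29090891-29090952, plus strand): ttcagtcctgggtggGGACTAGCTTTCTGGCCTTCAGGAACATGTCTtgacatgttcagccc
Ccng1 (gap -1.07, chr11:40755447-40755486, minus strand): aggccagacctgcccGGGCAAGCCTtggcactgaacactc
Aen (gap -0.70, chr7:78895922-78895961, plus strand): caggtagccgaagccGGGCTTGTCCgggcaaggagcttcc
Gtse1 (gap -0.54, chr15:85859940-85859979, plus strand): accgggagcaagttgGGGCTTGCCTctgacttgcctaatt
Bax (gap -0.45, chr7:45467075-45467114, minus strand): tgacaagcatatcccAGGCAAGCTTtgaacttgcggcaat
Ei24 (gap -0.40, chr9:36797320-36797359, minus strand): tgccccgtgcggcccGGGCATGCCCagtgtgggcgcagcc
Mef2c (gap -1.80, chr13:83503839-83503878, plus strand): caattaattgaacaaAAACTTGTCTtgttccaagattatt
Golim4 (gap -1.04, chr3:75957171-75957199, minus strand): gccaGGACAAGTCCctagccctcccaacc

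Outside the p53 target lists, 24 genes had a gap of -1 or lower, Trp53 among them, and 28 a gap of 1 or higher. Gatad2b, a subunit of the NuRD chromatin remodelling complex, was at 31.4 and 26.4 TPM in the control and the library labelled Tut1 KO and at 2.52 and 3.11 TPM in the Trp53 KO and double KO. Its gap of -2.74 was the widest on the lower side among the genes named here, with a difference of -2.97 ± 0.26 and a limma adjusted p of 0.052. Gatad2b entered the comparison only through the intact libraries, where it is high, and was named for its gap, so that p adds no separate support. Whether limma called it changed with the setting. The zinc finger gene Zfp422, at 86.0, 59.3, 8.53 and 10.7 TPM, was the only gene that limma called lower, with an adjusted p of 0.0394 and a difference of -2.78 ± 0.23. Both deleted libraries lay far below both intact ones for these genes. The limma call of Zfp422 held in 6 of 15 alternative settings, with adjusted p from 0.00576 to 0.616, while its direction held in each. Zscan26 and Zfp260, also zinc finger genes, had gaps of -2.65 and -1.12, and Mef2c and Dmrtb1, transcription factors of the MADS-box and DM-domain families, had -1.80 and -1.34. Zscan26 was counted at 0.198 TPM in the Trp53 KO, so its fold depends on the pseudocount.

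The other genes of the lower group belonged to several functions. Lpcat1, an acyltransferase that remodels phosphatidylcholine, measured 53.2 and 45.3 TPM in the intact libraries and 17.7 and 15.1 TPM in the deleted ones, and Suclg2, the GTP-forming subunit of succinyl-CoA ligase, 52.8 and 50.6 TPM against 19.1 and 20.5 TPM. Their differences of -1.53 ± 0.17 and -1.34 ± 0.14 both had a limma adjusted p of 0.0739. Each stood at well over 10 TPM in all 4 libraries, and neither pair of sides came near overlap. Dapk1, a death-associated protein kinase, had a gap of -1.26 and Dmxl2, a factor of vesicle acidification, one of -1.28. Rc3h2, an RNA-binding ubiquitin ligase, and Vash2, a tubulin carboxypeptidase, had gaps of -2.02 and -1.89 but stood below 2 TPM in both deleted libraries. Dip2a and the synaptic vesicle gene Svop had gaps of -1.17 and -1.10. Next to the limit of -1, the calcium channel gene Orai1 (-1.01) and Golim4 (-1.04) lay inside, and the sulfotransferase gene Chst10 (-0.95) and the spindle gene Psrc1 (-0.87) outside.

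The higher group was of a different make-up. Pseudogenes made up 13 of its 28 genes but only 3 of the 33 lower ones, and 2.17% of 600 pseudogenes tested had a gap of 1 or higher against 0.165% of 8474 protein-coding genes. Among the higher genes that the rule for named genes selected, which leaves out pseudogenes, Cep43, a centriole protein, had the widest gap, with 4.48 and 2.47 TPM in the control and the library labelled Tut1 KO, and 22.7 and 24.8 TPM in the Trp53 KO and double KO. Its difference was 2.50 ± 0.32 with a limma adjusted p of 0.104, and both deleted libraries were well above both intact ones. Pygo2, a co-activator of Wnt target genes, was at 5.0 and 4.67 TPM against 30.3 and 20.6 TPM, a gap of 1.85. Ppig, a prolyl isomerase of nuclear speckles, was at 7.33 and 4.0 TPM against 28.7 and 36.2 TPM, a gap of 1.84. In each of these genes the intact libraries were below 10 TPM.

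Fen1, the flap endonuclease that processes Okazaki fragments, was expressed at 18.7 and 16.4 TPM in the intact libraries and at 42.2 and 48.2 TPM in the deleted ones. The gap was 1.13 and the difference 1.32 ± 0.16, with a limma adjusted p of 0.092. No other DNA replication gene came near it, as the next member of that list, Ung, had a gap of 0.17. Rcc1, the exchange factor of the GTPase Ran, had a gap of 1.37, and Ankrd13c, a chaperone of the endoplasmic reticulum, 1.23. Dcbld2, a transmembrane receptor, Epm2aip1, which binds laforin, Ldah, a lipid droplet hydrolase, and the phosphatase gene Phospho2 had gaps of 1.70, 1.44, 1.18 and 1.15 with intact libraries below 5 TPM. Next to the limit of 1, the stress-inducible gene Nupr1 (1.11) and Fgfbp3 (1.0), which binds fibroblast growth factors, lay inside, and Slc35f6 (0.99) and Commd8 (0.94) outside.

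**Figure D2:**
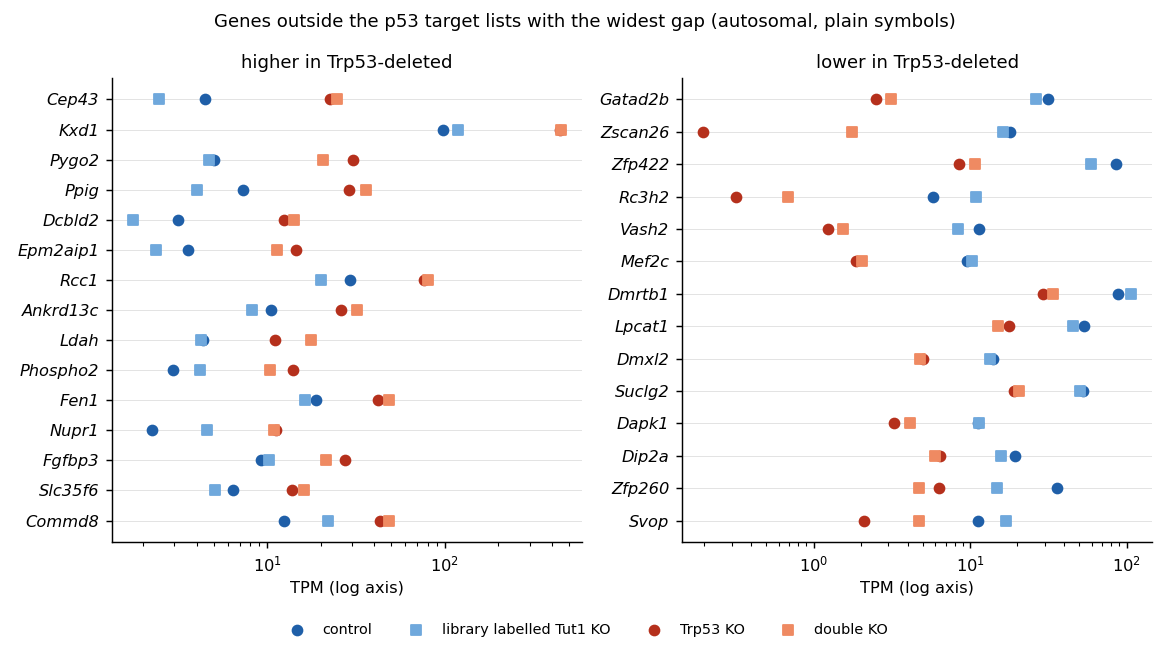
TPM of each library (log axes) for the 15 genes with the widest gap higher in the Trp53-deleted libraries (left) and the 15 lower (right), among autosomal genes with plain symbols outside the p53 target lists. Trp53, which is among the 15 lower, is not drawn. In each row both deleted points lie on one side of both intact points, with Kxd1 highest (447.1 and 450.7 TPM in the deleted libraries) and Zscan26 lowest (0.198 TPM in the Trp53 KO).

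Some of the higher genes share sequence with another gene, and there the sum of the partners was also examined, a step chosen after the values were seen. Kxd1, a subunit of the lysosome-positioning complex BORC, was 1 of the 6 genes that limma called higher, with 98.1, 119, 447.1 and 450.7 TPM from control to double KO and an adjusted p of 0.0394, a limma call that held in 6 of 15 alternative settings (0.00576 to 0.519). It shares exons with another annotated gene, so that its own level is uncertain. For Rcc1, which shares exons with the non-coding gene Snhg3, the sum still separated, at 87.0 and 92.9 TPM against 127.0 and 155.1 TPM, but with a gap of 0.45 in place of 1.37.

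The remaining 5 genes called higher by limma were pseudogenes, which lie outside the rule for named genes and are named because they are few. They were Rpl3-ps2, Gm26712, Gm13680, Gm15421 and Gm4786. Rpl3-ps2 measured 5.60 and 5.83 TPM in the intact libraries and 114 and 107 TPM in the deleted ones, with the lowest limma adjusted p of all genes (0.00241). Gm26712 was at 0.205 and 0.187 TPM against 55.1 and 57.7 TPM, and overlaps other annotated exons. Both entered the comparison only through the deleted libraries, where they are high, and both drop out when 10 TPM is asked of all 4 libraries. Among the alternative settings in which they were tested, the limma call held in 13 of 14 for Rpl3-ps2, 10 of 14 for Gm26712, 7 of 15 for Gm13680, 6 of 15 for Gm4786 and 5 of 15 for Gm15421, with adjusted p of up to 0.0662, 0.143, 0.519, 0.616 and 0.616 in that order.

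Over all 155 tested pseudogenes named after a parent gene, 19 (12.3%) were separated higher and 11 (7.1%) lower, no more than the 14.2% and 13.4% of all genes. Those described next were picked after their values were seen, and their parent genes did not go with them. Rpl3, a protein of the large ribosomal subunit, was separated lower with a gap of -0.26, while Rpl3-ps1 took 14.4 and 11% of its sum with Rpl3 in the intact libraries and 33.5 and 33.2% in the deleted ones. The summed TPM of Rpl3 and both pseudogenes was 1871.4, 2104.6, 2113.7 and 2054.8 from control to double KO, without separation. Rps15a-ps4 took 1.94 and 1.20% of its sum with Rps15a in the intact libraries and 10 and 9.04% in the deleted ones, while the sum of Rps15a and its 5 pseudogenes overlapped between the sides. Rps24-ps3 went the other way, with 1.93 and 2.0% of its sum with Rps24 against 0.608 and 0.560%. How reads were divided between such copies in each line was not tested.

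**Figure D3:**
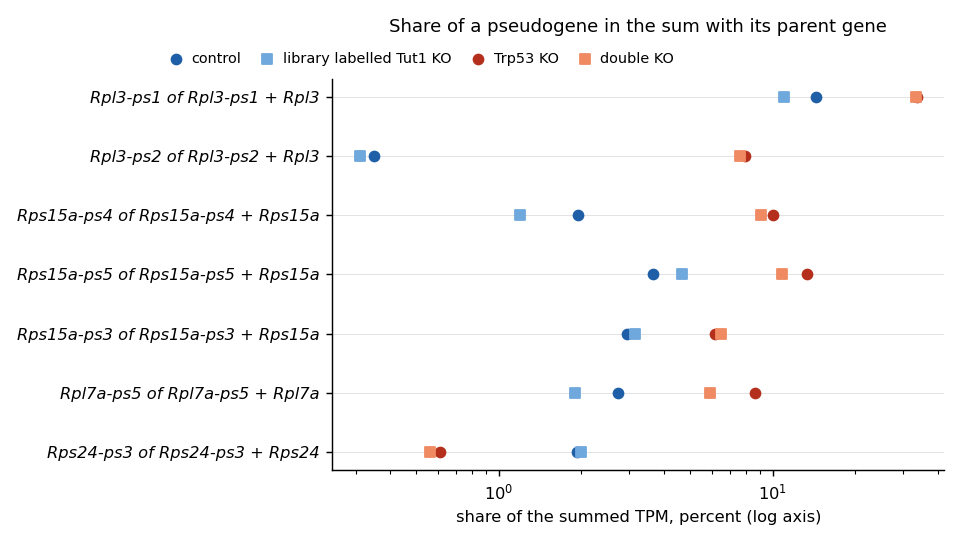
Share of each of 7 pseudogenes, picked after their values were seen, in the summed TPM with the gene it is named after, in percent on a log axis, 1 point a library. Both deleted libraries lie above both intact ones in all rows but the last, Rps24-ps3, where they lie below at 0.608 and 0.560%.

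Lists of genes for other pathways showed smaller median differences than the 3 p53 target lists together (-0.53). Some were larger in size than that of the p53 repair and metabolism list alone (-0.26). The integrated stress response list, whose members are raised by the transcription factor Atf4, had 12 of 18 genes separated higher (66.7% against 14.2% of all genes) and 1 lower, with a median difference of 0.36. Asns, or asparagine synthetase, was at 141.0, 114.6, 197.5 and 178.9 TPM from control to double KO, a gap of 0.34, and the transcription factor gene Atf5 at 50.5, 43.8, 71.7 and 60.8 TPM, a gap of 0.26. Nupr1, at 2.23 and 4.55 TPM in the intact libraries, reached 11.2 and 10.9 TPM in the deleted ones. Atf4 itself, at 131.3, 131.3, 133.3 and 230.3 TPM from control to double KO, had a gap of 0.02 and was high in the double KO alone. Ddit3, Chac1, Vldlr, Ppp1r15a and Herpud1 overlapped between the sides. The single member separated lower was Sesn2, which the p53 lists also hold. The serine and one-carbon list had 10 of 18 members (55.6%) separated higher, with Shmt2 widest at 0.25, and 2 (11.1%) lower, and that of cytosolic aminoacyl-tRNA synthetases 10 of 20 (50%), with Nars widest at 0.33, and 0 lower. The largest difference of the serine and one-carbon list was a negative one, that of Mat2a, which makes S-adenosylmethionine, at 54.7, 89.2, 32.4 and 47.6 TPM with a difference of -0.82. It was the only member of that list that limma marked at an unadjusted p of 0.05. Median differences with and without the library labelled Tut1 KO were 0.36 and 0.22 for the integrated stress response list, 0.20 and 0.14 for the serine list and 0.12 and 0.07 for the synthetases. Without the control, that of the serine list was 0.32 and that of the synthetases 0.23, and without the Trp53 KO that of the serine list was 0.13.

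Of 24 cholesterol genes 14 (58.3% against 14.2% of all genes) were separated higher and 0 lower, and of 18 fatty acid genes 11 (61.1%) higher and 0 lower. Lpl, or lipoprotein lipase, was at 14.0 and 13.4 TPM in the control and the library labelled Tut1 KO and at 25.7 and 23.3 TPM in the Trp53 KO and double KO. Scd1, the stearoyl-CoA desaturase, was at 198 and 144 TPM against 272 and 270 TPM. Their gaps of 0.69 and 0.45 were the widest in the list. Scd2, another stearoyl-CoA desaturase, had the largest difference of the list, -1.78, but its sides overlapped, at 64.2, 720.4, 81.8 and 47.3 TPM from control to double KO. The library labelled Tut1 KO alone was high there. Among cholesterol genes Fdps (gap 0.30) and Mvd (0.26) led, while Hmgcs1, the synthase that opens the pathway, was at 736.7, 461.6, 769.2 and 835.7 TPM with a gap of 0.06. The low library there was the one labelled Tut1 KO. The median of the cholesterol list was 0.36 over all libraries and 0.12 without that library, and that of the fatty acid list 0.31 and 0.11. Without the control they were 0.56 and 0.42.

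Of 34 mitosis genes, 16 (47.1% against 14.2% of all genes) were separated higher and 0 lower, and of 34 DNA replication genes 12 (35.3%) higher and 1 (2.94% against 13.4%) lower. Aurka, a kinase of the spindle poles, had the widest gap of the mitosis list, 0.24, with 88.1, 80.7, 107.7 and 104.1 TPM from control to double KO, and Mad2l1 of the spindle checkpoint had 0.17. The median of the mitosis list was 0.21, 0.04 without the library labelled Tut1 KO and 0.39 without the control. That of the replication list was 0.12, turned to -0.02 without the library labelled Tut1 KO, and was 0.21 without the control and 0.07 without the double KO. Limma marked 0 mitosis genes at an unadjusted p of 0.05, and Fen1 as the 1 replication gene. Of 46 respiratory chain subunits, 8 were separated lower (17.4%, near the 13.4% of all genes) and 1 higher (2.17%), and their median of -0.11 turned to 0.03 without the library labelled Tut1 KO, and was -0.25 without the control, -0.03 without the Trp53 KO and -0.17 without the double KO. Cox6c, a subunit of cytochrome oxidase, had the widest gap, at 807.8, 882.9, 540.1 and 657.6 TPM.

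Markers of the cells themselves were read against the same shares of all genes, 14.2% higher and 13.4% lower. Of 19 neural stem cell and radial glia genes 4 (21.1%) were separated higher and 4 (21.1%) lower, with Hopx, a homeobox gene of outer radial glia, lowest at 53.9, 49.7, 28.1 and 40.6 TPM. Nes, the intermediate filament nestin, was at 417 and 392 TPM against 337 and 313 TPM, a gap of -0.22. Of 9 astrocyte genes 6 (66.7%) were separated higher and 1 (11.1%) lower, with Cd44 widest among the higher (gap 0.19), a median difference of 0.14 and 0 marked higher by limma at an unadjusted p of 0.05. The astrocyte gene separated lower was Apoe, the apolipoprotein, at 37.6, 96.4, 20.6 and 32.5 TPM. Among 10 oligodendrocyte lineage genes 3 (30%) were lower, led by Cspg4 of oligodendrocyte precursors (gap -0.24), and 1 (10%) was higher. No separated gene of these marker lists reached a gap of 1 in either direction.

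Interferon-responsive genes were few, with 5 tested and 3 (60%) separated higher. The shares of all genes, 14.2% higher and 13.4% lower, again stand beside those of each list. The class I histocompatibility genes H2-D1, at 25, 23.2, 41.2 and 34.6 TPM, and H2-K1, at 55.9, 48.9, 88.2 and 69.5 TPM, had gaps of 0.46 and 0.31. Nfe2l2, which encodes the regulator of antioxidant defence Nrf2, was itself lower, at 79.5, 73.5, 56.1 and 58.5 TPM, whereas 7 of the 21 genes in its list (33.3%) were separated higher and 2 (9.52%) lower. Of 22 glycolysis genes 6 (27.3%) were higher and 1 (4.55%) lower, and of 20 cyclins, Cdks and Cdk inhibitors of G1 phase 5 (25%) were higher and 1 (5%) lower. The glycolytic regulator gene Pfkfb3 overlapped between the sides at 50.3, 7.46, 12.2 and 8.81 TPM, with the control alone high and a difference of -0.87. In the Notch, BMP and Wnt list, near the shares of all genes, 5 of 23 (21.7%) were higher and 3 (13%) lower, with the ligand gene Wnt7b lowest (gap -0.42). In the list of EGF and FGF receptors and feedback genes 1 of 18 (5.56%) was higher and 4 (22.2%) lower, with the Ets factor gene Etv4 lowest (gap -0.25). Of 23 extracellular matrix genes 3 (13%) were higher and 4 (17.4%) lower, of 25 lysosome genes 5 (20%) and 2 (8%), and of 9 imprinted growth genes 2 (22.2%) and 1 (11.1%), with no gap past 0.5.

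**Figure D4:**
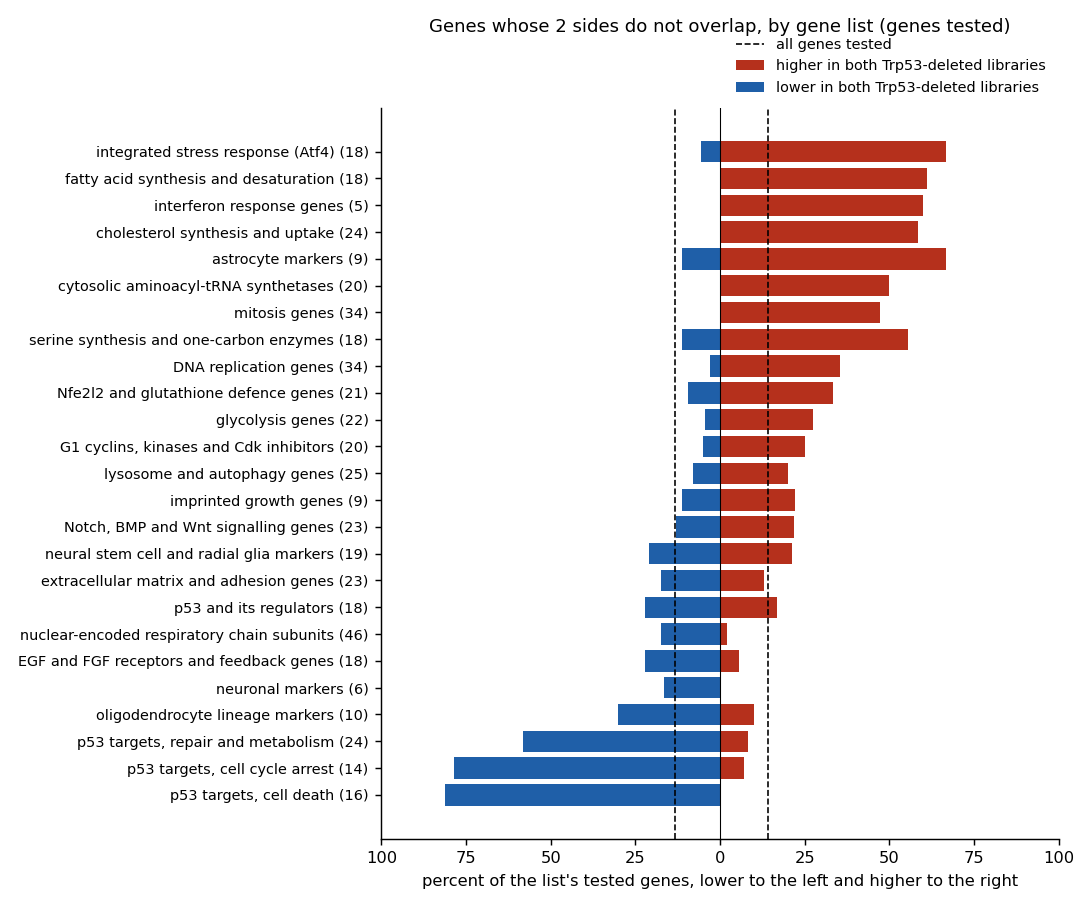
Percent of each list's tested genes (number in brackets) that were separated higher (right) or lower (left) in the Trp53-deleted libraries, with dashed lines at the shares of all genes tested, 14.2% and 13.4%. The 3 p53 target lists extend far to the left, and 7 lists reach 50% or more on the right, those of astrocyte markers, the integrated stress response, fatty acid, interferon, cholesterol, serine and tRNA synthetase genes.

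The deletion can be read in a pair of differences that share no library, the Trp53 KO minus the control and the double KO minus the library labelled Tut1 KO. The pairs differ in more than the Trp53 label. Xist stood at 204 TPM in the Trp53 KO against 0.01 TPM in the control, and at 0.009 TPM in the double KO against 188 TPM in the library labelled Tut1 KO, so that sex-linked transcripts are contrasted in opposite directions, and only the first pair also differs in Cre. Their part in the values that follow was not tested. Over all 9314 genes they were not alike, with a Pearson r of -0.09 and a Spearman rho of -0.09 across genes, which are not independent replicates, and the same sign in 43.0%. The first pair had 180 genes past 1 in the higher direction and 186 in the lower, and the second 203 and 169. Of these, 30 were past 1 in both in the higher direction and 42 in the lower, and 61 were past 1 in opposite directions. Slc19a2 differed by -2.83 in the first pair and -1.86 in the second, Cdkn1a by -1.28 and -1.75, and Zfp422 by -3.19 and -2.37.

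**Figure D5:**
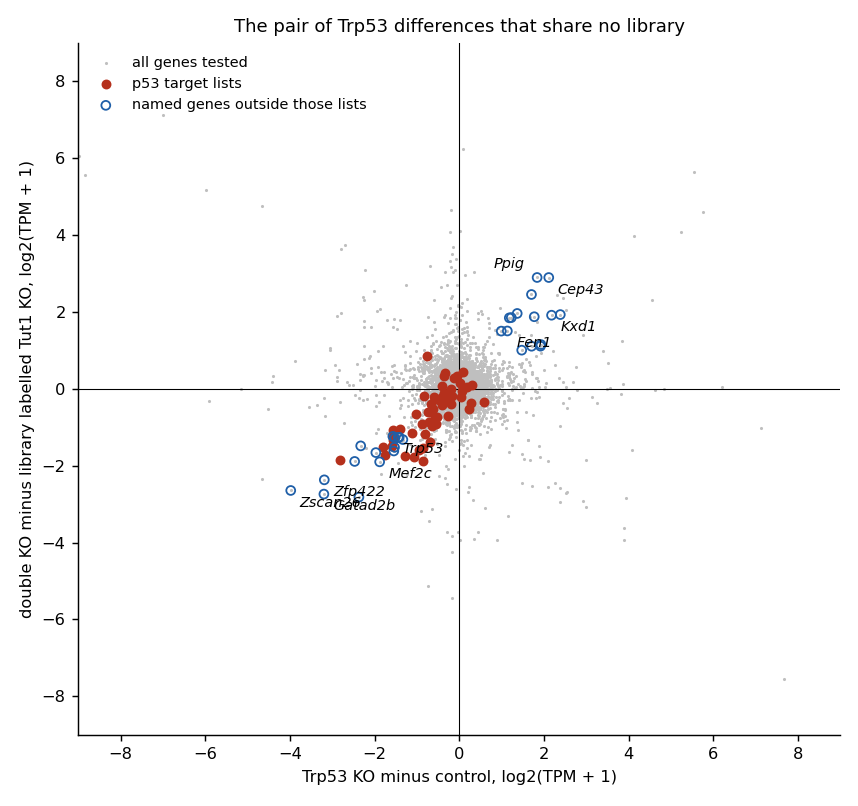
Difference in log2(TPM + 1) between the Trp53 KO and the control (x axis) and between the double KO and the library labelled Tut1 KO (y axis), 1 point a gene. The cloud of 9314 genes shows no common slope (r -0.09), whereas most p53 targets (filled) lie in the lower left. The named genes (open, Trp53 among them) were chosen for a gap, which fixes the same sign on both axes.

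The neighbourhood of Trp53 on chromosome 11 was examined on its own, since both deleted libraries come from cells with a modified Trp53 allele. Within 10 Mb of the gene, 62 of 191 tested genes (32.5%) were separated, 34 higher and 28 lower, with 0 at a gap of 1 or more. The share was 33.8% within 5 Mb, 31.2% within 20 Mb, 31.7% on the chromosome beyond 20 Mb and 27.4% on the other autosomes. The widest gap within 10 Mb was that of Sgsm2, at -0.53.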

How the data were processed

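RNA was sequenced from 4 cultures of mouse neural stem cells, 1 library a genotype. The authors deposited 1 table of TPM for all genes. Per the labels' processing notes, the tools were Trimmomatic, HISAT2 and StringTie and the genome mm10, with no roles or versions given. The labels name a stranded short-read kit while the series text describes long reads, and this was not resolved. TPM keeps no depth, so the depth per library is unknown and no counting interval is given.

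Genes with at least 10 TPM in at least 1 library were compared as log2(TPM + 1), a scale that understates the change of low genes. Separation and the gap are descriptions without a test. The test was limma (3.58.1, R 4.3.3) with an intensity trend and a term for Trp53 deletion alone, which leaves 2 residual degrees of freedom. Benjamini-Hochberg adjustment was over all genes tested. Fold changes and errors are on the log2 scale.

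The genes, 28 gene lists (641 of 664 symbols matched) and the rule for members were chosen with earlier results of these data known. Named genes were Trp53, Tut1, list members at a gap of 1 or more or widest in their list, the 15 autosomal genes a direction with the widest gap outside the p53 lists that had plain symbols (no predicted genes, Riken clones, pseudogenes, chromosome 18 genes or clustered protocadherins), the 5 with the lowest p, and 2 on either side of a gap of 1. Positions, exon sharing and composition came from the mouse GENCODE annotation on GRCm38, and promoter windows from RefSeq on GRCm38.p6. Alternatives were other pseudocounts and TPM minima, other scalings, a GC and length correction, limiting the genes to autosomal protein-coding ones that share no exons, a Tut1 term, no trend, a gap of 0.5 and leaving out each library. Sums over genes that share exons and over pseudogenes with their parents were added after seeing the data, and 1 such sum is not reported here.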

Additional observations from a re-analysis of the deposited data

Results flagged for a closer look

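In 10 of the gene lists with at least 3 tested genes the median difference had opposite signs in the pair of Trp53 differences that share no library (the Trp53 KO minus the control, then the double KO minus the library labelled Tut1 KO), and the value given last is the first minus the second. These oppositions were not tested, since each difference rests on 1 library a side. The pairs also contrast sex-linked transcripts in opposite directions, and only the first differs in Cre, whose part was not tested. The medians were -0.04 and 0.13 for regulators of p53 (-0.16), -0.15 and 0.15 for neural stem cell and radial glia markers (-0.30), and -0.19 and 0.35 for neuronal markers (-0.54). They were -0.19 and 0.09 for oligodendrocyte lineage markers (-0.28) and -0.01 and 0.20 for DNA replication genes (-0.21). Extracellular matrix genes had -0.03 and 0.03 (-0.053), Notch, BMP and Wnt genes -0.06 and 0.12 (-0.17), EGF and FGF genes -0.14 and 0.03 (-0.17), lysosome genes 0.09 and -0.03 (0.12) and imprinted growth genes -0.11 and 0.10 (-0.21). Over all genes tested the medians were -0.05 and 0.09.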

How the results depend on the processing

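The labels give no replicate numbers to pair libraries by, and the pairing by Tut1 label is the fit with a Tut1 term, with 1 residual degree of freedom. Counts of separated genes (1326 higher and 1250 lower of 9314) became 2217 and 2169 of 15095 with a minimum of 1 TPM. With none they were 3666 and 3528 of 27634. With 1 library left out, which leaves 1 on a side, they ran from 2511 to 4271 higher and from 2286 to 3478 lower. Genes with a gap of at least 1 (28 higher and 33 lower) numbered 8 and 11 with 10 TPM in all 4 libraries, 19 and 18 with a pseudocount of 5, 11 and 27 among autosomal protein-coding genes without shared exons, 57 and 95 at a gap of 0.5, and 55 to 108 and 67 to 89 with 1 library left out. Limma calls (6 higher and 1 lower) became 1 and 0 with a pseudocount of 0.1, 7 and 2 with 5, 2 and 0 with a minimum of 1 TPM, 4 and 0 with 10 TPM in all libraries, 0 and 0 with no minimum, 0 and 0 among autosomal protein-coding genes without shared exons, where only 1 of the 7 was still tested, 4 and 2 with medians set equal, 2 and 0 with quantile normalization or no trend, 6 and 2 without mitochondrial and ribosomal protein genes, and 15 and 13 with a Tut1 term. The limma fit to those 7455 protein-coding genes marked 281 at an unadjusted p of 0.05. That to the 27634 genes with no minimum marked 1214. Both are smaller shares than such a threshold marks without any difference. With 1 library left out, limma called 2 to 11 genes higher and 0 to 13 lower, the most (24 in all, 6 of them among the 7) without the double KO, where the lone Trp53 KO library is assumed to vary like the intact ones. Without the library labelled Tut1 KO, the difference of Tut1 turned from -0.51 to 0.099 and the median of the G1 list from 0.106 to -0.059. Over the libraries left out, these ran from -1.126 to 0.099 and from -0.059 to 0.247. The cause of these shifts was not tested. Named genes kept their direction and their separation, or lack of it, in 582 of the values computed, with 1 reversed and 1 stronger. For separated genes much of this was fixed in advance. A pseudocount, a TPM minimum or a limit on the genes cannot reorder a gene's values, and leaving out a library cannot undo a separation.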
